A study of Mus musculus with 28 samples.

Results

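The 39 protein-coding Hox genes of the mouse were followed from embryonic fibroblasts into induced hepatocyte-like (iHep) cells and set beside adult hepatocytes. Members were chosen by symbol alone, as every gene named Hoxa, Hoxb, Hoxc or Hoxd with a paralogue number, which gave 39 of 23712 genes in the deposited tables. They comprised 11 Hoxa genes on chromosome 6, 10 Hoxb genes on chromosome 11, 9 Hoxc genes on chromosome 15 and 9 Hoxd genes on chromosome 2. The tables held RNA sequencing of 28 libraries in 9 groups, all from the strain C57BL/6. Fibroblasts (MEF, 2 libraries) were prepared from embryos 13.5 days after conception, and their labels name no virus. Hepatocytes (Hep, 2 libraries) were isolated with collagenase from livers of mice 10 weeks old. Every other group started as fibroblasts that received retroviruses carrying Hnf4a together with Foxa1, Foxa2 or Foxa3. These cells were sampled 48 h later (48h_Foxa1, 48h_Foxa2 and 48h_Foxa3, 2 libraries each) and again as established iHep cells (iHep_Foxa1 with 6 libraries, iHep_Foxa2 with 4 and iHep_Foxa3 with 6). A last group of 2 libraries (48h_Foxa3del2) received Hnf4a with a Foxa3 mutant called del2. Its titles give 48 h and its stage label says iHep, so its time is uncertain. No library with an empty virus or with Hnf4a alone was among the 28. The labels do not say whether the infected cells came from the fibroblasts that were sequenced, whether an iHep library is 1 clone, or whether replicates are separate cultures, so p-values measure the spread between these libraries, which may be technical.

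Hox genes encode homeodomain transcription factors. Within each cluster their order along the chromosome follows their order of expression along the head-to-tail axis of the embryo, with low paralogue numbers used in front and high numbers used at the rear and in the distal limb. Cultured fibroblasts keep the Hox combination of the body site they came from, a record often called positional memory, while liver parenchyma arises from endoderm near the front of the trunk. In the text, anterior means paralogues 1 to 3, central 4 to 8 and posterior 9 to 13. Levels of different genes are compared only as FPKM, read counts scaled by transcript length and library size. A gene's change between groups was tested on summed counts with edgeR's quasi-likelihood test, and "rose" and "fell" are used for a Benjamini-Hochberg adjusted p under 0.05 over all 16499 genes tested. Of the 39 genes, 38 passed the filter on low counts. The exception was Hoxb1, which reached at most 0.02 FPKM in any library.

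The results below turn on the 5′ end of the Hoxd cluster, where Hoxd12 and Hoxd13 are neighbours, and on Hoxd9, a posterior gene of the same cluster. RefSeq promoter entries (build GRCm38.p6) matched 22 of the 39 genes. The 250 bases before each of these 3 transcription starts are shown because the 3 genes ended at very different levels in iHep cells, with CpG dinucleotides, the sites of DNA methylation in mammals, in capitals.
Hoxd9 (chr2:74697513-74697762, plus strand): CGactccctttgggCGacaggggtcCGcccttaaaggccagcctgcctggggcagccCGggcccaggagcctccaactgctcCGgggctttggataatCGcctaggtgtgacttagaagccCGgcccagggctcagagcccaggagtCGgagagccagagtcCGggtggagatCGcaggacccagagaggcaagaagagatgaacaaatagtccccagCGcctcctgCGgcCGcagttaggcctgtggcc
Hoxd12 (chr2:74674763-74675012, plus strand): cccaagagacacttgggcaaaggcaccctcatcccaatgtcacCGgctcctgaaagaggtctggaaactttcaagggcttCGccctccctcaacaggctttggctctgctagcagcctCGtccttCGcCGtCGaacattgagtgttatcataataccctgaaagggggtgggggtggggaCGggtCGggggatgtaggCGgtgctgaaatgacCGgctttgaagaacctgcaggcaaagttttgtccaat
Hoxd13 (chr2:74667975-74668224, plus strand): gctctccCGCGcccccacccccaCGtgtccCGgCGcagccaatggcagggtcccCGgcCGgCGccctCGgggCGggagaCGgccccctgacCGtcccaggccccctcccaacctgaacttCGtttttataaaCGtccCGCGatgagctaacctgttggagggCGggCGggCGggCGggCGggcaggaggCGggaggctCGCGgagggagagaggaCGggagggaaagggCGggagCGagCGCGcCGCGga
The window before Hoxd13 holds 31 CpGs and the motif TATAAA, searched on both strands. The windows before Hoxd9 and Hoxd12 hold 13 and 10 CpGs and no TATAAA. Among all 32851 promoter windows of this length the median was 6 CpGs, 5.19% held 31 or more, and 12.4% held TATAAA. The 24 windows of Hox genes had a median of 12.5 CpGs, with 2 to 35, and 16.7% of them held TATAAA. These letters describe the windows only, since no methylation or factor binding was measured.

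Assigned reads ranged from 14592820 to 51743266 per library. The summed level of fibroblast markers was highest in MEF and that of hepatocyte markers in Hep. The 12 fibroblast markers together reached 40700 to 44200 CPM (counts scaled to library size) in MEF, 366 to 1720 in iHep libraries and 61.3 to 102 in Hep, while the 12 hepatocyte markers reached 15.8 to 20.3, 2630 to 39000 and 242000 to 261000 CPM. Hep libraries also carried 172 CPM of endothelial markers in each library and 346 to 437 CPM of leukocyte and Kupffer cell markers. The 6 bile duct markers summed to 553 to 4310 CPM in iHep libraries, 1040 to 1370 in MEF and 21.3 to 23.8 in Hep. Most of the MEF sum was Spp1, with a mean of 1150 CPM. The mean of Krt19 was 25.9 CPM in MEF and 1150, 905 and 567 CPM in iHep_Foxa1, iHep_Foxa2 and iHep_Foxa3. Against MEF, 5, 4 and 3 of the 6 bile duct markers rose in these groups, where 20%, 15.3% and 22.9% of all genes rose. In iHep_Foxa1, 1 of the 6 fell, where 19.9% of all genes did. The part of these markers in the Hox results was not tested. Libraries fell into 2 sets by the noncoding RNA Rn7sk, which is not polyadenylated. It stood at 10 CPM or more in all 6 libraries of 48h_Foxa1, 48h_Foxa2 and 48h_Foxa3 and in 8 of 16 iHep libraries (iHep_Foxa1 replicates 4 to 6 and iHep_Foxa3 replicates 2 to 6), and below that in the rest. Xist, transcribed from an inactive X chromosome, was at 0.146 and 0.160 CPM in the mutant libraries and at 585 CPM or more in every other library. The low-Rn7sk set was not uniform. Rps29, a ribosomal protein gene, stood at 372 and 373 CPM in the mutant libraries and at 35.4 and 34.8 CPM in MEF.

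**Figure D1:**
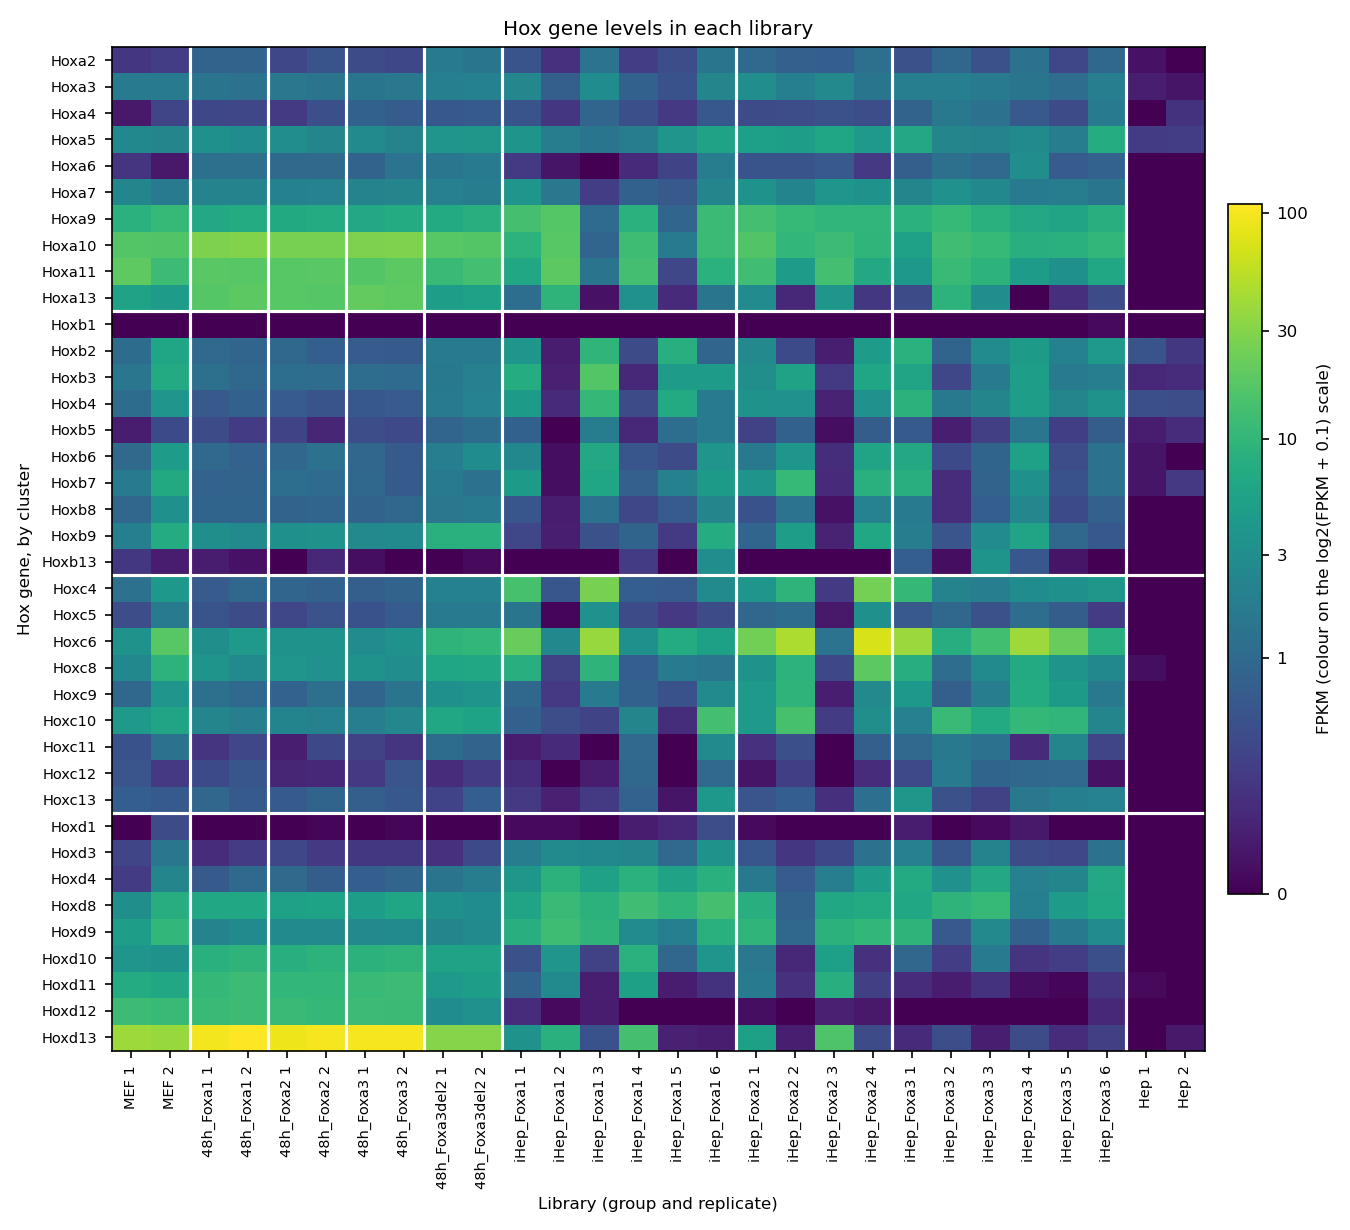
Levels of 38 Hox genes (rows, by cluster) in the 28 libraries (columns, by group and replicate), as FPKM with colour on the log2(FPKM + 0.1) scale. Hep columns are dark for nearly every gene, the 48 h columns are alike, and the iHep columns differ from each other in blocks of neighbouring genes.

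The sequenced fibroblasts expressed a posterior code dominated by Hoxd13, which patterns the digits. Hoxd13 was the highest Hox gene in both MEF libraries, at 39.7 and 37.5 FPKM. Hoxa10 and Hoxa11, which pattern the limb and the reproductive tract, stood at 16.8 and 16.2 FPKM and at 19.2 and 12.1 FPKM. Posterior genes made up 82.9% and 61.2% of all Hox FPKM in MEF replicates 1 and 2, and 23 genes reached 1 FPKM in both libraries. The MEF libraries were not alike. The summed level of Hoxb was 9.57 FPKM in replicate 1 and 39.5 FPKM in replicate 2, and that of Hoxc was 14.8 and 44.5 FPKM. Hoxc6, used in the thorax and forelimb, stood at 3.60 and 17.6 FPKM. The Hoxa sum (57.5 and 50 FPKM) and the sum of Hoxd10 to Hoxd13 (62.7 and 58.7 FPKM) were closer. Leukocyte markers summed to 28.2 CPM in replicate 1 and 325 CPM in replicate 2, and their part in the Hoxb and Hoxc difference was not tested. Over the 29 Hox genes with a mean of 1 CPM or more in MEF, the median SD between the 2 libraries was 0.877 on the log2(CPM + 0.1) scale, against 0.175 over all such genes.

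**Figure D2:**
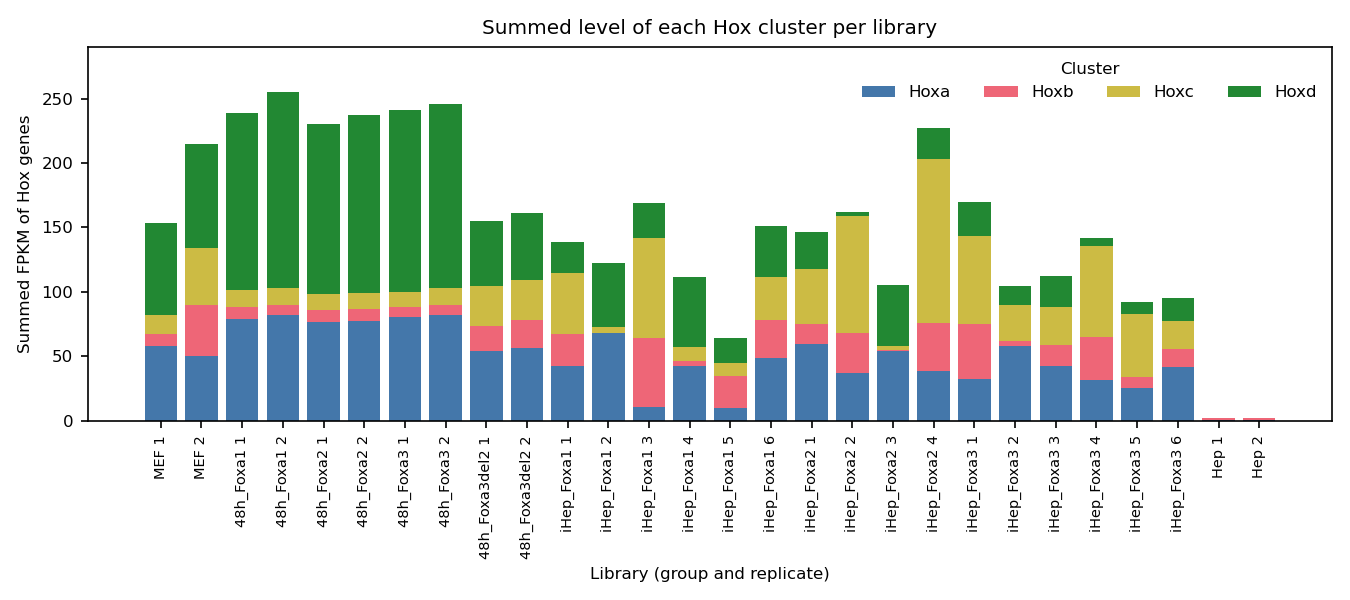
Summed FPKM of the genes of each Hox cluster (stacked colours) in each library. MEF and 48 h libraries carry most of their signal in Hoxd and Hoxa, iHep libraries split it differently from one library to the next, and both Hep bars end below 2 FPKM.

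Hepatocytes had almost no Hox RNA. The 39 genes together reached 1.66 and 1.72 FPKM in the Hep libraries, against 153 and 215 FPKM in MEF, and no gene reached 1 FPKM. Against MEF, 26 of 38 tested genes fell and none rose, where 32.6% of all genes fell and 24.3% rose. The median log2 change of the 38 genes was -9.06, and that of all genes was -0.29. For genes without a count in Hep only a lower bound can be given, taking 3 counts summed over both Hep libraries as the floor. Hoxa10 was at least 228-fold lower, Hoxa11 at least 205-fold, Hoxa9 at least 174-fold and Hoxd12 at least 168-fold. Without Hep replicate 1 these bounds were 113, 101, 86.1 and 83.2, and without Hep replicate 2 they were 115, 103, 87.6 and 84.6. Hoxd13 fell from a mean of 101 CPM to 0.125 CPM (adjusted p = 0.00461, edgeR). Intervals and floors of this kind cover counting error only. Without Hep replicate 1 the number that fell was 17, and without Hep replicate 2 it was 16.

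The little Hox RNA in hepatocytes came from anterior and central genes, mostly of Hoxb. Hoxb genes took 75.3% and 66.3% of the summed FPKM and posterior genes 1.20% and 3.49%. Hoxb4 had the most reads, 18 and 16 counts (0.45 and 0.43 FPKM) in the 2 Hep libraries. Hoxb2, a hindbrain gene, had 13 and 5 counts (0.51 and 0.21 FPKM), and Hoxb3 6 and 7 counts. Hoxa5, which acts in lung and diaphragm mesenchyme, had 7 counts in each library (0.24 and 0.26 FPKM). Hoxb2 and Hoxb4 did not pass the test against MEF, whereas Hoxa5 fell by 2.47 (SE 0.71) on the log2 scale with adjusted p = 0.00514 in edgeR. Endothelial, leukocyte and stellate cell markers were present in the same libraries, stellate cell markers at 97.6 to 166 CPM, and their part in these low values was not tested. Fewer cells of a type and less RNA per cell cannot be told apart in bulk libraries.

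At 48 h a posterior code was also present. Hoxd13 stood at 92.9 to 108 FPKM over the 6 libraries with full-length factors, Hoxa10 at 26.1 to 28.9 FPKM and Hoxa13, the partner of Hoxd13 in the distal limb and hindgut, at 17.3 to 20.6 FPKM. All 6 values of each gene lay above both MEF values. No Hox gene was called against MEF with Foxa1, Foxa2 or Foxa3, where 5.25%, 5.48% and 5.21% of all genes were called. The unadjusted p was under 0.05 for 3, 2 and 3 Hox genes, and DESeq2 and limma called none. DESeq2 gave Hoxd13 no adjusted p in comparisons where edgeR called it, so it may not have been able to call this gene. The edgeR fit pools the spread of all groups, as the DESeq2 and limma fits do. Hox genes varied far more between iHep libraries than at 48 h. The median SD of Hox genes on the log2(CPM + 0.1) scale was 0.0743 to 0.119 within the 48 h groups, and it was 1.91, 2.13 and 1.02 in iHep_Foxa1, iHep_Foxa2 and iHep_Foxa3. With each 48 h group and MEF fitted alone, 10 of 36, 8 of 35 and 9 of 36 tested Hox genes were called for Foxa1, Foxa2 and Foxa3, where 39.7%, 39.7% and 40.2% of all genes were called, so the share among Hox genes was not above that of all genes. In those fits Hoxd13 was higher by 1.16 (SE 0.10), 1.06 (SE 0.08) and 1.13 (SE 0.08) on the log2 scale, with adjusted p = 0.00376, 0.00434 and 0.00357 in edgeR. All 6 of these 48 h libraries had high Rn7sk and both MEF libraries low Rn7sk, so infection and library set cannot be told apart here. The Hoxb sum at 48 h was 7.65 to 9.29 FPKM and the Hoxc sum 11.5 to 13.3 FPKM, just below MEF replicate 1 and far below MEF replicate 2.

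In cells with the Foxa3 mutant, posterior genes made up 68.9% and 68.4% of Hox FPKM. These shares lay between the MEF libraries and below the 87.0% or more of the 48 h libraries with full-length factors. Hoxd13 stood at 30.8 and 30.5 FPKM and Hoxd12 at 2.92 and 3.32 FPKM, below both MEF libraries and below all 48 h libraries with full-length factors. The Hoxb sum was 19.4 and 21.2 FPKM and the Hoxc sum 30.7 and 31.6 FPKM, between the 2 MEF libraries. Only Hoxa2, a gene of the hindbrain and second branchial arch, rose against MEF, from 0.20 and 0.26 FPKM to 1.64 and 1.43 FPKM (log2 change 2.56, SE 0.82, adjusted p = 0.0371 in edgeR), where 7.78% of all genes rose and 8.05% fell. The call was lost without any 1 of the 4 libraries compared, with adjusted p between 0.104 and 0.174. Against 48h_Foxa3 no Hox gene was called, where 2.98% of all genes were. There were 2 genes at an unadjusted p under 0.05, and limma called 1. With these 2 groups fitted alone 28 of 35 were called, 20 higher and 8 lower, where 65.3% of all genes were called. The lower ones included Hoxd13 (log2 change -1.67, SE 0.07, adjusted p = 2.15e-18 in edgeR) and Hoxd12 (log2 change -1.90, SE 0.10, adjusted p = 1.75e-15). The mutant and full-length libraries also differ in Rn7sk set and in Xist. Hnf4a stood at 727 and 737 CPM in the mutant libraries and at 87.1 and 75.5 CPM in 48h_Foxa3. Hepatocyte markers summed to 700 to 785 CPM in the mutant and 24.3 to 27.1 CPM in 48h_Foxa3. Time may differ too, since that of the mutant is uncertain. The factor and these differences cannot be told apart. The mutant and MEF libraries differ in Xist and in Rps29, so the same limit holds for the comparison with MEF.

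iHep cells kept Hox expression, but Hoxd12 and, less evenly, its neighbours at the 5′ end of Hoxd were low. All 16 iHep libraries expressed between 13 and 29 Hox genes at 1 FPKM or more, with a summed level of 64.4 to 228 FPKM. Hoxa5 and Hoxc6 reached 1 FPKM in all 16 libraries, 34 genes in some of them, and Hoxb1, Hoxd1 and Hoxd12 in none. Against MEF, 1 Hox gene rose and 2 fell in iHep_Foxa1, where 20% of all genes rose and 19.9% fell. In iHep_Foxa2 none rose and 2 fell, where 15.3% and 15.5% of all genes did. In iHep_Foxa3, 3 rose and 4 fell, where 22.9% and 23.7% did. The median log2 change of the 38 tested genes was -0.23, -0.13 and -0.03 in the 3 groups. The number of calls was 1 without MEF replicate 1 and 5 without iHep_Foxa1 replicate 6 in iHep_Foxa1, 1 without iHep_Foxa2 replicate 2 or 4 in iHep_Foxa2, and 4 without MEF replicate 1 in iHep_Foxa3.

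Hoxd12 was the gene that fell in every iHep group. Its MEF values were 12 and 11.3 FPKM. In iHep_Foxa1 it ranged from 0 to 0.14 FPKM with a median of 0.01. The 4 iHep_Foxa2 libraries had 0.03, 0, 0.09 and 0.06 FPKM. In iHep_Foxa3 it was 0 in 5 libraries and 0.12 FPKM in replicate 6. All iHep values lay far below those of MEF and of the 48 h libraries with full-length factors, which were 10.5 FPKM or more, and below the mutant libraries, at 2.92 and 3.32 FPKM. The log2 change against MEF was -8.23 (SE 0.88), -8.09 (SE 1.03) and -9.28 (SE 0.93), with adjusted p = 3.76e-07, 5.35e-06 and 1.28e-07 in edgeR. The mean over all 16 iHep libraries was 0.0787 CPM, 395-fold below the MEF mean of 31.1 CPM. These 3 calls held under every alternative that was run, including the libraries with low Rn7sk alone.

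**Figure D3:**
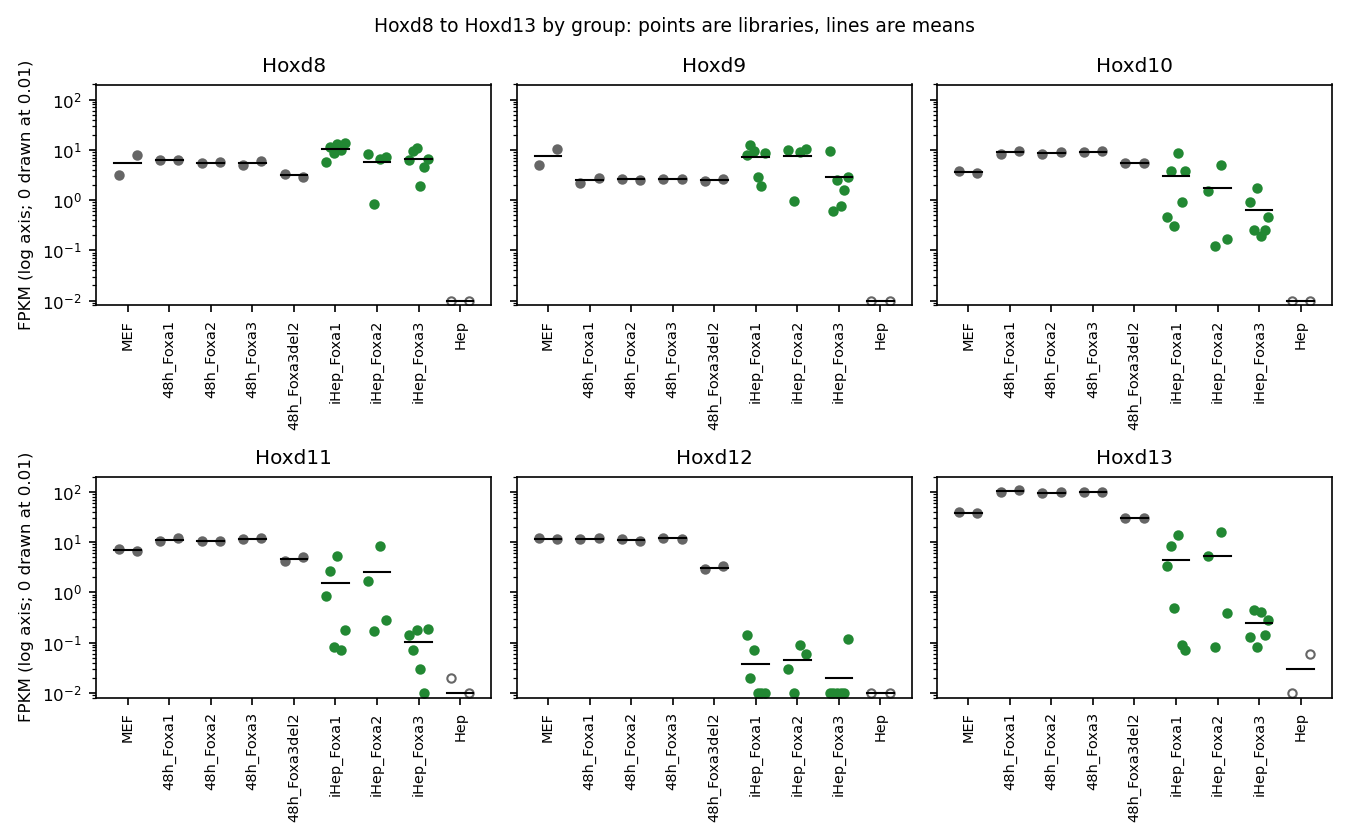
FPKM of Hoxd8 to Hoxd13 in each library (points; green, iHep) with group means (lines), on a log axis with 0 drawn at 0.01. Hoxd8 and Hoxd9 in iHep libraries reach from below to above the MEF values, Hoxd10, Hoxd11 and Hoxd13 spread over wide ranges, and Hoxd12 sits at or below 0.14 FPKM in all of them.

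Its neighbours fell less evenly. Hoxd13 values in iHep_Foxa1 ran from 0.07 to 13.8 FPKM, with 3.42, 8.36 and 13.8 FPKM in replicates 1, 2 and 4 and under 0.5 FPKM in replicates 3, 5 and 6. In iHep_Foxa2 they were 5.27, 0.08, 15.9 and 0.39 FPKM. In iHep_Foxa3 all 6 were between 0.08 and 0.44 FPKM. All iHep values of Hoxd13 lay below both MEF values. Hoxd13 fell in iHep_Foxa3 by 7.44 (SE 1.32) on the log2 scale with adjusted p = 9.83e-05 and in iHep_Foxa1 by 3.26 (SE 1.16) with adjusted p = 0.0298 in edgeR. The iHep_Foxa1 call was lost without either MEF library (adjusted p = 0.104 without replicate 1 and 0.0971 without replicate 2). It was also lost with the replicate block (0.0603), with a term for the library set (0.0552), in the low-Rn7sk libraries alone (0.129) and with the 2 groups alone (0.133). The iHep_Foxa3 call was lost in the low-Rn7sk libraries alone, where that group keeps 1 library (adjusted p = 0.0886). Hoxd11 also fell in iHep_Foxa3, by 6.23 (SE 1.21) with adjusted p = 0.000242, and Hoxd10 by 2.64 (SE 1.03) with adjusted p = 0.0401. Neither was called in the low-Rn7sk libraries alone (adjusted p = 0.152 for Hoxd11 and 0.5 for Hoxd10). Hoxd10 also lost its call without either MEF library, without any 1 of iHep_Foxa3 replicates 2, 4, 5 and 6, with the library set as a term, and without the filter on low counts, with adjusted p between 0.0507 and 0.137. Counts of the paired genes Hoxd10 and Hoxd11 can share reads, since their gene models overlap. Evx2, a homeobox gene that lies next to Hoxd13, went the same way. It stood at 2.02 and 1.21 FPKM in MEF and at no more than 0.09 FPKM in any iHep library, and it fell in all 3 iHep groups (adjusted p = 6.9e-06, 0.000243 and 1.78e-06 in edgeR).

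Few anterior or central genes were called. Hoxd4, a gene of the hindbrain and neck, rose in iHep_Foxa1. It stood at 0.25 and 2.29 FPKM in MEF and at 3.93, 9.02, 5.47, 8.61, 5.58 and 8.52 FPKM in the 6 iHep_Foxa1 libraries, all above MEF (log2 change 2.33, SE 0.75, adjusted p = 0.018 in edgeR). The call was lost without MEF replicate 1 (adjusted p = 0.209), in the low-Rn7sk libraries alone (0.123) and with the 2 groups alone (0.064). In iHep_Foxa3, Hoxa4 and Hoxa6, both central genes, rose. Hoxa4 stood at 0.06 and 0.33 FPKM in MEF and from 0.39 to 1.73 FPKM in iHep_Foxa3, all above MEF (log2 change 2.33, SE 0.79, adjusted p = 0.02 in edgeR). Hoxa6 stood at 0.19 and 0.06 FPKM in MEF and from 0.65 to 2.96 FPKM in iHep_Foxa3, again all above MEF (log2 change 3.03, SE 1.21, adjusted p = 0.0451 in edgeR). Neither was called without MEF replicate 1, with adjusted p = 0.217 and 0.114. Hoxa6 was also lost without MEF replicate 2 (adjusted p = 0.259) and without any 1 of iHep_Foxa3 replicates 2, 3 and 4 (adjusted p between 0.0519 and 0.0787). With a term for the library set its log2 change was 1.51 (adjusted p = 0.311), and it was lost with the replicate block (0.0867), with DESeq2's size factors (0.051) and without the filter on low counts (0.054). Hoxa4 was lost with the 2 groups alone (0.0564). In the low-Rn7sk libraries alone neither was called, with adjusted p = 0.244 and 0.183. The fall of Hoxd1 in iHep_Foxa2 rested on MEF replicate 2, the only MEF library with a level above 0 (0.41 FPKM), and without that library the log2 change was 1.60 with adjusted p = 0.829.

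As a share of the MEF mean, posterior genes had the lowest medians of the 3 position classes in each iHep group. Of the 39 genes, 28 had 1 CPM or more in both MEF libraries. The median gene kept 74.5% of the MEF level in iHep_Foxa1, 89.2% in iHep_Foxa2 and 69.5% in iHep_Foxa3. The 13 posterior genes had medians of 48.5%, 60.1% and 39.3%, and the 11 central genes had 81.6%, 120% and 99.1%. The 4 anterior genes had medians of 109%, 69.5% and 92.6%. By cluster over all iHep libraries, the median was 103% for Hoxc, 85.5% for Hoxa, 80.3% for Hoxb and 45% for Hoxd. Hoxd12 and Hoxd13 were the 2 genes whose mean over the 16 iHep libraries was below 10% of MEF, and 20 of 28 were at 50% or more. By the median over these libraries, 3 genes were below 10% and 17 at 50% or more. Single libraries kept less. In iHep_Foxa2 replicate 3, 13 of 28 genes were below 10%, and in iHep_Foxa1 replicate 5 only 7 were at 50% or more. In Hep, 25 of the 28 were below 10%. These shares depend on which fibroblasts are the reference. With MEF replicate 1 alone the medians were 109%, 136% and 130%, with MEF replicate 2 alone 60.6%, 66.1% and 49.9%, and with the 48 h libraries 126%, 179% and 126%. The percentages are descriptions and no test was made on them.

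**Figure D4:**
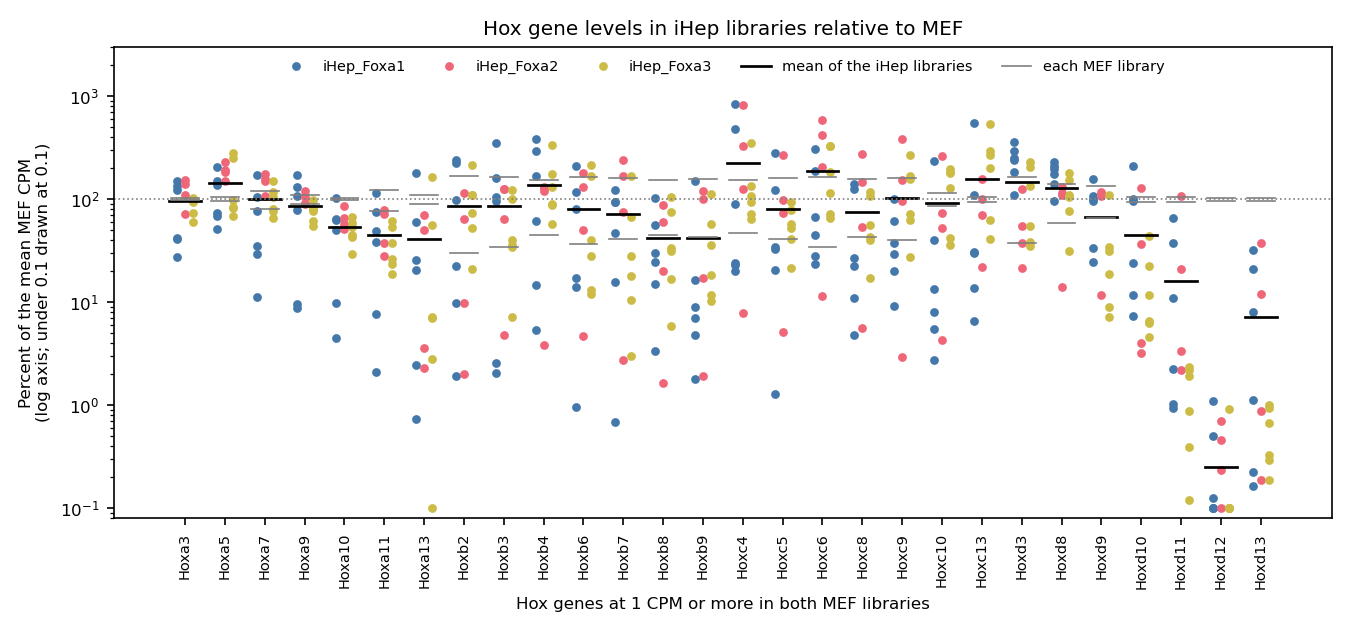
Level of each of 28 Hox genes in the 16 iHep libraries (points, coloured by Foxa factor) as percent of the mean MEF CPM, on a log axis with values under 0.1 drawn at 0.1. Grey lines mark the 2 MEF libraries and black lines the iHep mean. Most means lie near or somewhat below 100%, with Hoxd12 and Hoxd13 far below.

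Each iHep library carried its own Hox combination, and libraries of 1 factor differed by whole blocks of neighbouring genes. The Hoxb sum in iHep_Foxa1 was 24.5, 0.50, 53.8, 3.80, 24.7 and 29.9 FPKM in replicates 1 to 6. In iHep_Foxa2 it was 16.2, 31.1, 0.86 and 37.6 FPKM. iHep_Foxa1 replicate 2 and iHep_Foxa2 replicate 3 were thus almost without Hoxb, and they also had the lowest Hoxc sums, 4.27 and 2.48 FPKM. Both kept Hoxa (67.6 and 54.2 FPKM) and Hoxd (50 and 47.3 FPKM), and posterior genes made up 74.4% and 74.8% of their Hox FPKM. The opposite pattern stood in iHep_Foxa1 replicates 3 and 5. There the sum of Hoxa9 to Hoxa13 was 3.36 and 3.07 FPKM, against 17.7 FPKM or more in the other 14 iHep libraries, and posterior genes made up 9.68% and 10.8% of Hox FPKM. iHep_Foxa1 replicate 3 had the highest Hoxb sum of all libraries, led by Hoxb3 at 17.0 FPKM, a gene of the hindbrain and neck. iHep_Foxa2 replicate 2 and iHep_Foxa3 replicate 4 were low across Hoxd, with sums of 3 and 5.83 FPKM, against 9.30 FPKM or more in the other 14.

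Hoxc6 was the highest Hox gene in 9 of 16 iHep libraries. It stood at 2.55 to 36.8 FPKM in iHep_Foxa1, with a median of 6.31, and at 24.6, 46.3, 1.35 and 71.8 FPKM in iHep_Foxa2. In iHep_Foxa3 it ran from 7.79 to 39 FPKM, with a median of 17.3. The 71.8 FPKM of iHep_Foxa2 replicate 4 was the highest value of any Hox gene in an iHep library, and MEF values were 3.60 and 17.6 FPKM. Hoxc4 behaved likewise, with 14.2 and 26.0 FPKM in iHep_Foxa1 replicates 1 and 3 and 25.7 FPKM in iHep_Foxa2 replicate 4, while the MEF libraries had 1.27 and 4.14 FPKM. Hoxc10, a lumbar and hindlimb gene, was highest in iHep_Foxa2 replicate 2 (14.3 FPKM) and iHep_Foxa1 replicate 6 (13.4 FPKM) and stood at 0.15 FPKM in iHep_Foxa1 replicate 5. Hoxb13, the most posterior gene of its cluster, stood at 0.21 and 0.07 FPKM in MEF and was at 2.98 FPKM in iHep_Foxa1 replicate 6 and 3.63 FPKM in iHep_Foxa3 replicate 3, and under 1 FPKM in the other 14 iHep libraries.

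This spread was larger than that of other genes. Over genes with a mean of 1 CPM or more in the group, the median SD between libraries on the log2(CPM + 0.1) scale was 1.91 for Hox genes and 0.486 for all genes in iHep_Foxa1. It was 2.13 and 0.286 in iHep_Foxa2, and 1.02 and 0.383 in iHep_Foxa3. Pairs within a cluster had positive correlations more often than pairs between clusters, to a degree that differed by cluster. Across the 16 iHep libraries, 112 of 122 gene pairs within a cluster had a positive Pearson correlation, with a median of 0.48 (median Spearman 0.40), against 206 of 406 pairs from different clusters, with a median of 0.01 (median Spearman -0.00). Pairs within Hoxb had a median of 0.80, within Hoxc 0.62, within Hoxd 0.45 and within Hoxa 0.28, where 35 of 45 were positive. Between clusters, Hoxb with Hoxc had a median of 0.61, above that within Hoxa, while Hoxb with Hoxd had -0.32 and Hoxc with Hoxd -0.31. With group means removed, the within-cluster and between-cluster medians were 0.53 and 0.05. In the 8 high-Rn7sk iHep libraries they were 0.57 and 0.03, and in the 8 low-Rn7sk ones 0.66 and -0.06. These correlations are descriptions over pairs that share the same libraries. Some pairs within a cluster have overlapping gene models (Hoxa3 with Hoxa4, Hoxa5 and Hoxa6, Hoxb3 with Hoxb4, Hoxd3 with Hoxd4, Hoxd10 with Hoxd11), and their part in these values was not tested.

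Most Hox genes were called against hepatocytes. Of 38 genes, 26 were higher in iHep_Foxa1 than in Hep, 26 in iHep_Foxa2 and 25 in iHep_Foxa3, where 35.3%, 35.2% and 35.3% of all genes were higher. No Hox gene was lower, where 24.8%, 25.4% and 26.7% of all genes were. The median log2 difference of the 38 genes was 7.27, 7.59 and 7.97. Hoxd12 was not called in any of the 3 comparisons, with mean levels of 0.089, 0.109 and 0.0481 CPM in iHep cells and no count in Hep. In iHep_Foxa3, Hoxd10, Hoxd11 and Hoxd13 did not pass either, with means of 1.13, 0.362 and 0.581 CPM against 0, 0.0612 and 0.125 CPM. Hoxb2 and Hoxb4, the main Hox transcripts of hepatocytes, were not called in any of the 3, and Hoxb2 stood at 6.12, 2.94 and 6.00 CPM in iHep cells against 1.11 CPM. Leaving out either Hep library brought the counts to between 13 and 17. In the low-Rn7sk libraries alone 15 Hox genes were higher in iHep_Foxa1, where 33.7% of all genes were, and with iHep_Foxa1 and Hep fitted alone 17 of 34 were, where 26.6% of all genes were. These comparisons share the Hep libraries, as those above share the MEF libraries.

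Against the cells at 48 h with the same factor, genes at the 5′ end of Hoxd fell as well. In iHep_Foxa1, 2 Hox genes rose and 4 fell, where 21.2% and 20.7% of all genes did. In iHep_Foxa2, 1 rose and 2 fell, where 20.4% and 19.7% did. In iHep_Foxa3, 3 rose and 5 fell, where 19.6% and 21% did. Hoxd12 and Hoxd13 fell in all 3. The log2 change of Hoxd13 was -4.46 (SE 1.17), -4.09 (SE 1.35) and -8.61 (SE 1.36), with adjusted p = 0.00434, 0.0196 and 3.08e-05 in edgeR. With the 2 groups alone the Hoxd13 calls in iHep_Foxa1 and iHep_Foxa2 were lost (adjusted p = 0.0501 and 0.0746), and that in iHep_Foxa2 with a term for the library set (0.108). Hoxd11 fell in iHep_Foxa1 and iHep_Foxa3, Hoxd10 in iHep_Foxa3, and Hoxa10 in iHep_Foxa1 (log2 change -1.54) and iHep_Foxa3 (log2 change -1.51). Hoxd3 and Hoxd4 rose in iHep_Foxa1 and in iHep_Foxa3, Hoxd4 by 3.15 (SE 0.79) and 2.64 (SE 0.77) with adjusted p = 0.00319 and 0.00896. Hoxc6 rose in iHep_Foxa2, where the library ranges of Hoxc6 overlapped. The calls on Hoxd3, Hoxd4, Hoxa10 and Hoxc6, that on Hoxd11 in iHep_Foxa1 and that on Hoxd13 in iHep_Foxa2 were each lost without at least 1 of the 48 h libraries. With 1 library at 48 h left out, the number of calls fell to 2 in iHep_Foxa1 (without 48h_Foxa1 replicate 1), to 1 in iHep_Foxa2 (without either library) and to 4 in iHep_Foxa3 (without either library), and without iHep_Foxa2 replicate 3 it was 7. All 48 h libraries here and no iHep_Foxa2 library had high Rn7sk, so for that factor time and library set cannot be told apart.

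Between iHep groups few Hox genes were called. On the log2(CPM + 0.1) scale, the median SD of Hox genes was 1.91, 2.13 and 1.02 in iHep_Foxa1, iHep_Foxa2 and iHep_Foxa3. That of all genes was 0.486, 0.286 and 0.383. With this spread within groups, a missing call does not show that levels were equal. Hoxd3 and Hoxd4 were higher in iHep_Foxa1 than in iHep_Foxa2 (2 of 38, where 7.1% of all genes were higher and 3.87% lower). Of 3 genes called between iHep_Foxa1 and iHep_Foxa3, Hoxd11 and Hoxd13 were higher in iHep_Foxa1 (where 4.41% were higher and 3.92% lower). Of 4 called between iHep_Foxa2 and iHep_Foxa3, Hoxd11 and Hoxd13 were higher and Hoxb13 lower in iHep_Foxa2 (where 16% were higher and 15.1% lower). Hoxd13 differed by 4.19 (SE 1.10) and 4.46 (SE 1.15) on the log2 scale from iHep_Foxa3, with adjusted p = 0.0233 and 0.0073 in edgeR. Library ranges overlapped for every one of these genes. In the low-Rn7sk libraries alone, where iHep_Foxa1 keeps 3 libraries and iHep_Foxa3 keeps 1, no Hox gene was called in any of the 3 comparisons. Without iHep_Foxa2 replicate 3, the library with 15.9 FPKM of Hoxd13, 1 call remained between iHep_Foxa2 and iHep_Foxa3. Between iHep_Foxa1 and iHep_Foxa2 no gene was called without any 1 of iHep_Foxa1 replicates 4, 5 and 6 or iHep_Foxa2 replicates 1, 2 and 3, and 1 was without iHep_Foxa1 replicate 2. Between iHep_Foxa1 and iHep_Foxa3 the number was 0 without iHep_Foxa3 replicate 5, 1 without iHep_Foxa1 replicate 4 and 6 without iHep_Foxa1 replicate 6.

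Other genes of the Hox system are set beside the shares of all genes that rose, 20%, 15.3% and 22.9% in iHep_Foxa1, iHep_Foxa2 and iHep_Foxa3 against MEF, and that fell, 19.9%, 15.5% and 23.7%. Among 9 PBX and MEIS family genes, whose proteins bind DNA together with HOX proteins, 1 rose and 4 fell in iHep_Foxa1, 1 rose and 2 fell in iHep_Foxa2, and 2 rose and 4 fell in iHep_Foxa3. Meis1 fell in all 3, from 17.3 ± 5.49 CPM (SD, n = 2) in MEF to 5.89 ± 0.949 (n = 6), 7.50 ± 2.75 (n = 4) and 6.51 ± 1.16 CPM (n = 6), with 6.54 ± 0.0793 CPM in Hep (n = 2). Pbx2 rose in all 3 (log2 change 0.91, 0.84 and 1.02). Among 31 subunits of the Polycomb complexes, which keep Hox genes silent outside their domain, 7 rose and 2 fell in iHep_Foxa1, 7 and 2 in iHep_Foxa2, and 9 and 4 in iHep_Foxa3. Ezh1, a histone methyltransferase of that system, rose by 1.13, 1.58 and 1.22 on the log2 scale, while Cbx6, which binds the mark, fell by 1.25, 0.74 and 1.68. The Polycomb counts of risen genes are near the shares of all genes in iHep_Foxa1. Of 18 trithorax and MLL complex genes, which maintain active Hox genes, 3, 3 and 6 rose and 0, 1 and 1 fell. The median log2 change of each of these lists lay between -0.02 and 0.29, and that of all genes between 0.05 and 0.08.

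Among 19 tested upstream regulators, 4, 6 and 6 rose and 5, 4 and 4 fell, beside 20%, 15.3% and 22.9% of all genes that rose and 19.9%, 15.5% and 23.7% that fell. Cdx2, a homeobox gene of the hindgut that acts on central Hox genes in the embryo, had no reads in any MEF, Hep or 48 h library. It stood at 22.4 to 77.3 FPKM in iHep_Foxa1, at 5.53, 13.2, 39.2 and 5.79 FPKM in iHep_Foxa2 and at 8.01 to 53.6 FPKM in iHep_Foxa3, a rise in all 3 groups (adjusted p = 2.66e-05, 0.00012 and 3.11e-05 in edgeR). Crabp2, a retinoic acid carrier, fell in all 3 groups, from 161 ± 13.4 CPM in MEF (SD, n = 2) to 0.803, 1.23 and 0.281 CPM. Of 18 genes flanking the clusters, none rose and 3, 1 and 5 fell. Among 37 other positional transcription factors, 3, 3 and 2 rose and 20, 14 and 23 fell, with a median log2 change of -2.01, -1.27 and -2.89. Irx1, a homeobox gene of the limb and lung, fell from 16.5 and 32.1 FPKM in MEF to between 0.08 and 8.25 FPKM over the 16 iHep libraries. In Hep, 30 of these 37 genes fell against MEF and none rose, where 32.6% of all genes fell and 24.3% rose.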

How the data were processed

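RNA from 28 libraries was sequenced after TruSeq Stranded mRNA preparation, per the labels' protocols. Reads were aligned with BWA 0.7.12 to mm9, per the submitters' processing notes. For the quantifier and its strand setting, nothing is given in the sources used here. Each deposited table holds, per the file headers, a length, an expected count and an FPKM value for 30710 RefSeq transcripts. The authors' expected counts were summed per gene and rounded to whole numbers. The authors' FPKM values were summed per gene and used for levels. RefSeq named 30190 transcripts and GENCODE 181. The other 339 stayed unnamed and held 0.609% to 3.21% of reads.

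Counts were tested with edgeR 4.0.16 in R 4.3.3 (robust quasi-likelihood test, TMM scaling, filter on low counts, 1 fit over all 9 groups, 19 residual degrees of freedom). P-values were Benjamini-Hochberg adjusted over the 16499 genes tested, with a threshold of 0.05. The fit was checked on counts simulated with the same spread of a gene in every group. That check does not cover spreads that differ between groups, as those of Hox genes did here. Alternatives were DESeq2 1.42.0 (size factors and Wald test), limma 3.58.1 on log2(FPKM + 1) or log2(FPKM + 0.1), no filter, the most abundant transcript, a replicate block, a term for the Rn7sk set, low-Rn7sk libraries alone, the 2 compared groups alone, and leaving out each replicate. Replicate numbers did not pair samples.

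All Hox genes could be named, but results on 1 of them alone are not reported here, though it is in the counts and sums. From each list of other genes the rule took, per comparison, the 4 with the smallest adjusted p and the 4 with the highest mean. The members and the gene lists were chosen with earlier results of these data known. Total reads per library were 14592820 to 51743266, and intervals and floors cover counting error only.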

Additional observations from a re-analysis of the deposited data

Results flagged for a closer look

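Within the iHep groups, the highest or lowest library stood far from the others by Dixon's test in 14 of 96 combinations of a Hox gene and a group, counting genes that reached 1 FPKM in the group. For normally distributed values, chance alone gives about 1 in 20. These FPKM values were not shown to be normally distributed, and some genes reached 1 FPKM only in the flagged library. The share flagged can therefore not be read against that rate. Genes of 1 cluster are not independent of each other, so the combinations are not 14 separate events.

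In iHep_Foxa1, 6 of the 7 values belonged to replicate 6, which stood high for posterior genes of Hoxb and Hoxc. Posterior Hoxd genes were low there, with Hoxd13 at 0.07 FPKM and Hoxd11 at 0.18 FPKM. Its level was 2.98 FPKM for Hoxb13 (others at most 0.25), 7.57 for Hoxb9 (others at most 0.85), 13.4 for Hoxc10 (others at most 2.29), 2.74 for Hoxc11 (others at most 1.01) and 4.12 for Hoxc13 (others at most 0.81). Hoxa6, a central gene, stood at 1.82 FPKM there (others at most 0.32). The remaining value was Hoxa13 in replicate 2 at 9.39 FPKM, with 0.04 to 3.39 in the others.

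In iHep_Foxa2 both values were low ones. Hoxb4 stood at 0.1 FPKM in replicate 3, with 3.38 to 3.52 in the others. Hoxd9 stood at 0.94 FPKM in replicate 2, with 9.02 to 10.2 in the others. In iHep_Foxa3 the values came from 4 libraries. Hoxa13 stood at 9.24 FPKM in replicate 2 (others at most 3.04), Hoxb13 at 3.63 in replicate 3 (others at most 0.71) and Hoxa6 at 2.96 in replicate 4 (0.65 to 1.21). Replicate 1 held Hoxc4 at 10.4 FPKM (1.89 to 3.94) and Hoxd9 at 9.31 FPKM (0.61 to 2.84).

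Differences between iHep groups that passed edgeR's quasi-likelihood test, as log2 values of the first group minus the second, were found in all 3 pairs of groups. Between iHep_Foxa1 and iHep_Foxa2 they were 2.00 for Hoxd3 and 1.69 for Hoxd4. Between iHep_Foxa1 and iHep_Foxa3 they were 3.90 for Hoxd11 and 4.19 for Hoxd13. Between iHep_Foxa2 and iHep_Foxa3 they were 4.65 for Hoxd11 and 4.46 for Hoxd13. Hoxb13 had no read in iHep_Foxa2, and its fitted value of -8.03 is no bound. Taking 3 counts summed over its libraries as the floor, it was at least 41.5-fold lower there than in iHep_Foxa3. That limit rests largely on iHep_Foxa3 replicate 3, with 144 of the group's 193 counts, and without this library it was 13.3 and the call was lost (adjusted p = 0.0868).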

How the results depend on the processing

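Over 142 calls of a Hox gene in a comparison and 2377 alternative values, 1999 kept direction and side of the threshold, 377 lost the call and 1 reversed (Hoxd1, iHep_Foxa2 against MEF, log2 change 1.60 without MEF replicate 2, and -6.66 without iHep_Foxa2 replicate 1). Of the 142 calls, 61 held in every alternative run, among them the falls of Hoxd12 against MEF and against 48 h in all 3 iHep groups. The causes of changed counts were not tested, except that leaving out libraries leaves fewer samples. Groups of 2 libraries and the wide spread of Hox genes between iHep libraries limit the precision. Where 1 library was left in a group, it was assumed to vary like the other groups.

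With the 2 compared groups alone, the number of Hox genes called was 10, 8 and 9 at 48 h against MEF (Foxa1, Foxa2, Foxa3), 8 for 48h_Foxa3del2 against MEF, 28 for 48h_Foxa3del2 against 48h_Foxa3, 1 for iHep_Foxa1 against MEF, 17 against Hep and 3 against 48h_Foxa1, and 0 for iHep_Foxa1 against iHep_Foxa2 or iHep_Foxa3. With a term for the library set it was 4 for 48h_Foxa3del2 against MEF, 4 for iHep_Foxa3 against MEF, 0 for iHep_Foxa2 against either other iHep group and 1 for 48h_Foxa3del2 against 48h_Foxa3. In low-Rn7sk libraries alone it was 2 for 48h_Foxa3del2 and 1 for iHep_Foxa3 against MEF, 15 for iHep_Foxa1 against Hep and 0 between any iHep groups. DESeq2's Wald test gave 3 for 48h_Foxa3del2 against MEF. Limma on log2(FPKM + 1) gave 4 for 48h_Foxa3del2, 5 for iHep_Foxa1 and 4 for iHep_Foxa2 against MEF, 14 and 17 for iHep_Foxa1 and iHep_Foxa2 against Hep, and 5 for iHep_Foxa2 against 48h_Foxa2. It gave 2 for iHep_Foxa2 against iHep_Foxa3 and 1 for 48h_Foxa3del2 against 48h_Foxa3. With + 0.1 in place of + 1 these were 4 for 48h_Foxa3del2 against MEF and 5 for iHep_Foxa2 against 48h_Foxa2. They were 2 for iHep_Foxa2 against iHep_Foxa3 and 1 for 48h_Foxa3del2 against 48h_Foxa3. The median share of the MEF level became 126%, 179% and 126% with 48 h libraries as reference.

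Replicate numbers are only shared: same-numbered libraries had correlations of deviations between -0.16 and 0.18. With the replicate block, 115 of 142 calls stayed and 27 were lost, and the count of calls became 1 for iHep_Foxa2 against MEF, 0 for iHep_Foxa1 against iHep_Foxa2 and 1 for iHep_Foxa2 against iHep_Foxa3.

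Leaving out 1 library gave 16 to 24 calls for Hep against MEF, 0 to 0 for each 48 h group against MEF, 1 to 5, 1 to 3 and 4 to 9 for iHep_Foxa1, iHep_Foxa2 and iHep_Foxa3 against MEF, 13 to 27, 15 to 26 and 16 to 25 against Hep, and 2 to 8, 1 to 7 and 4 to 9 against 48 h. It gave 0 to 3 for iHep_Foxa1 against iHep_Foxa2, 0 to 6 for iHep_Foxa1 against iHep_Foxa3, 1 to 6 for iHep_Foxa2 against iHep_Foxa3 and 0 to 0 for 48h_Foxa3del2 against 48h_Foxa3. The median share of MEF ranged from 60.6% to 109%, 66.1% to 136% and 49.9% to 130%.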
